A study of Mus musculus with 4 samples.

Results

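The genes described here encode the enzymes that clear drugs, steroids and other small lipophilic molecules from the liver. They were chosen by name as cytochrome P450 genes (Cyp followed by a family number, without Cyp7a1 and Cyp8b1) and as Ugt, Sult, Ces, Aldh, Fmo, Adh, Akr1 and Gst (classes a, m, p, t, k, o and z) genes. Of the 7836 genes and 12815 distinct m6A peaks in the table, 96 genes and 149 peaks belonged to these families. The peaks came from m6ARIP-seq, in which fragmented poly(A)+ RNA is pulled down with an antibody against N6-methyladenosine and sequenced beside the fragmented RNA before pull-down, the input. HKO livers lacked the m6A methyltransferase gene Mettl3 through Alb-Cre, which acts in hepatocytes, so other liver cells keep the gene. Mettl3flox/flox livers carried the same loxP-flanked alleles without Cre. Both groups were C57BL/6 mice on chow at 8 weeks of age. Each group gave 1 IP and 1 input library from RNA pooled over several mice, so no spread between mice could be measured and no test was possible.

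Drug metabolism is usually divided into phases. Phase I enzymes (Cyp, Fmo, Adh, Aldh, Akr1 and Ces) oxidise, reduce or hydrolyse a substrate. Phase II enzymes (Ugt, Sult and Gst) then attach glucuronic acid, sulfate or glutathione, which makes the product easier to excrete. Many of these genes are expressed mainly in hepatocytes, in zones of the liver lobule and often at different levels in males and females. m6A is written by a complex with METTL3 as its catalytic subunit, typically at GGAC-like sequences in long internal exons and near stop codons. Antibody signal near transcript starts can also come from m6Am, a cap-adjacent base that METTL3 does not make.

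The libraries held 17232466 reads (HKO IP), 18365473 (HKO input), 17784101 (flox IP) and 14972301 (flox input). Peaks of these 96 genes took 1.01% and 0.618% of the reads in HKO IP and input, and 1.16% and 0.687% in flox IP and input. Mettl3 itself had no peak among those analysed, so its deletion could not be checked here. Input summed over the hepatocyte marker peaks (8 of 10 genes with a peak) was 9891 RPM in HKO and 11945 RPM in flox livers. The markers did not move alike. The log2 input change (HKO over flox) was below 0 at 13 of 16 peaks, lowest at Pck1 (−1.49). It was above 0 at Apoa1 (0.01) and at Apob peaks with 1.60 and 2.47. Kupffer cell markers (9 of 10 genes) summed to 480.6 RPM in HKO and 314.4 RPM in flox. Endothelial markers (7 of 8) gave 101.2 and 131.9 RPM, stellate markers (5 of 8) 39.4 and 25.3 RPM, and lymphocyte markers (1 of 5) 2.56 and 1.4 RPM, in HKO and in flox. Cholangiocyte markers (2 of 5) summed to 35.8 RPM in HKO and 13.3 RPM in flox; Krt19, Krt7 and Epcam had no peak. The part of these shifts in the values below was not tested. In bulk liver, fewer cells of a type and less RNA per cell cannot be told apart.

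Some of the sequence under these peaks is shown first, to set the carboxylesterase paralogs side by side at the same place near the stop codon. The windows come from GENCODE transcripts of build GRCm38 and run 5′ to 3′ on the transcript strand, with every GGACT in capitals. Ces1g (chr8:93302955-93302979, minus strand), Ces1c (chr8:93099215-93099239, minus strand) and Ces1b (chr8:93056937-93056961, minus strand) carry a copy in the coding sequence with its A 62 nt before the end of the stop codon, and Ces1e (chr8:93201442-93201466, minus strand) 50 nt before it.
Ces1g: gtGGACTtttGGACTgagctcagag
Ces1c: gtggctttctGGACTgagctcctgg
Ces1b: gtggctttctGGACTgagctcctgg
Ces1e: gtggctttctGGACTgaacttctgg

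The Ces1c and Ces1b windows are identical, and Ces1e differs from them at 2 of 25 bases. Ces1g differs from Ces1c and Ces1b at 6 of 25 bases and holds a second GGACT in the same window, with its A 70 nt before the end of the stop codon. The Ces1e peak also holds a second copy, in the 3' UTR outside the window shown.

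Ces3a (chr8:105057978-105058002, plus strand) and Ces3b (chr8:105093137-105093161, plus strand) also share a site, 113 nt before the end of the stop codon.
Ces3a: ctagaaccacGGACTggggtgaagc
Ces3b: ctagaatcacGGACTggggtgaagc

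Fmo2 and Cyp26a1 carried GGACT in peaks that, like that of Ces1g, were at least 2-fold less enriched in HKO livers. These sites lie in Fmo2 (chr1:162876817-162876841, minus strand, coding sequence) and Cyp26a1 (chr19:37701359-37701383, plus strand, 3' UTR). Printed with them are the 3 sites of the Ugt2b36 peak (coding sequence, minus strand, at chr5:87092418-87092442, chr5:87092221-87092245 and chr5:87091952-87091976), which held more copies than any other member peak.
Fmo2: ttaaagacccGGACTctccagtcct
Cyp26a1: ttcaattcttGGACTtatttgaagt
Ugt2b36 site 1: tatggccggtGGACTacagtcactg
Ugt2b36 site 2: gtggaaagatGGACTtatgaggttc
Ugt2b36 site 3: atacagtggaGGACTccctctccct

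Fold enrichment is the IP RPM of a peak over its input RPM in the same genotype. In HKO livers the 149 peaks had a median enrichment of 1.90, against 1.78 in flox livers. All 12815 peaks had medians of 2.31 in HKO and 2.84 in flox. The median log2 change (HKO over flox) was 0.37 for the enzyme peaks and −0.04 for all peaks. With 1 library per group, a peak was called lower or higher when its enrichment differed at least 2-fold. By this rule 12 of 149 peaks, in 11 genes, were lower in HKO livers (8.05%, 95% exact binomial interval 4.23 to 13.6), against 24.3% of all peaks. Another 9 peaks, in 9 genes, were higher (6.04%), against 6.25% of all peaks. Centred on the median of all peaks near transcript starts (a shift of 0.46), the split was 23 lower and 1 higher, against 36.8% and 1.6% of all peaks, and the median change was −0.083. The 1 higher peak was then the Sult2a8 intron peak, whose HKO input held 0 reads. The binomial intervals given here and below treat peaks as independent and hold no error of the reads. The intervals given below for single peaks cover counting error of the reads only.

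The table lists only peaks with an enrichment over 1 in both genotypes, so a peak with a flox enrichment under 2 could not be called lower. Of the 59 enzyme peaks with a flox enrichment of 2 or more, 12 were lower (20.3%, interval 11 to 32.8), against 34.7% of all such peaks. Of the 69 with an HKO enrichment of 2 or more, 9 were higher (13.0%), against 10.1%. The interval of the second share was 6.14 to 23.3. Both intervals treat peaks as independent, although some genes held several peaks, so neither is a test against the share of all peaks. The members nearest the size rule were Cyp2c54, Aldh1b1 and Adh7 just inside (−1.03, −1.05 and −1.11) and Cyp51, Adh6-ps1 and Cyp2d37-ps just outside (−0.87, −0.82 and −0.78). On the other side Cyp4a31, Gstp3 and Adh4 were just inside (1.02, 1.03 and 1.06), and Adh6-ps1, Sult2a8 and Ugt3a2 just outside (0.999, 0.996 and 0.94).

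**Figure D1:**
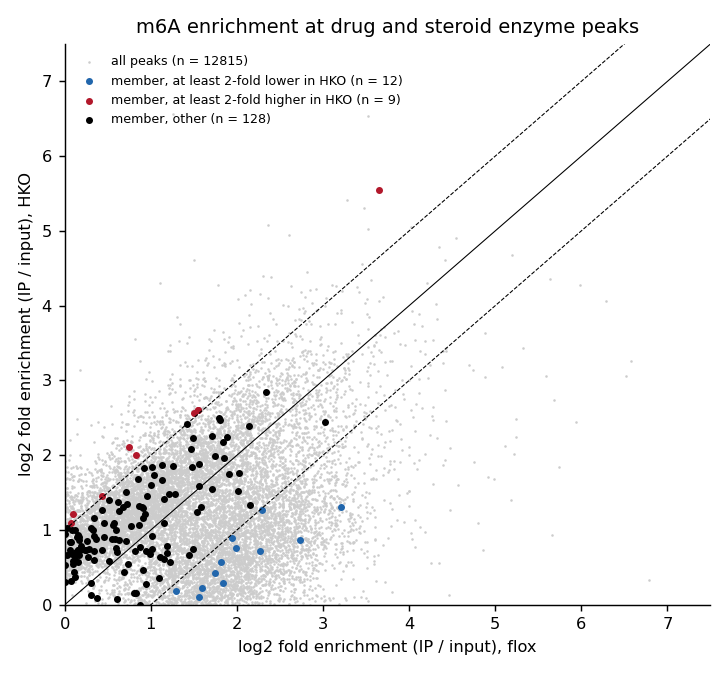
Fold enrichment (IP over input, log2) of each peak in HKO livers (y axis) against flox livers (x axis). Grey points are all 12815 peaks, black points the enzyme peaks, blue points the 12 at least 2-fold lower and red points the 9 at least 2-fold higher in HKO; the solid line marks equal enrichment and the dashed lines a 2-fold difference.

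Among the carboxylesterases, which hydrolyse esters of drugs and lipids, the Ces1g stop codon peak had 93.4 RPM (HKO IP) and 69.7 RPM (HKO input), against 166 RPM (flox IP) and 49.6 RPM (flox input). Its enrichment was 1.34 in HKO and 3.34 in flox livers, a log2 change of −1.32 (95% counting interval −1.54 to −1.10). IP was therefore lower and input higher in the HKO libraries. Ces1c, whose peak held the most IP reads of the family, had 745 RPM (HKO IP) and 489 RPM (HKO input), against 975 RPM (flox IP) and 437 RPM (flox input). Its change was −0.55 (−0.63 to −0.47). The change was −0.08 (−0.46 to 0.29) for Ces1b and −0.10 (−0.50 to 0.30) for Ces1e. The 3 paralogs with the near-identical window thus spanned −0.55 to −0.08, beside −1.32 for Ces1g. The Ces1e peak, like that of Ces1g, held 2 copies of GGACT. Flox enrichment was 3.34 at Ces1g, 2.23 at Ces1c, 2.01 at Ces1b and 1.83 at Ces1e. A link of the sequence with the change was not tested. Ces3a and Ces3b changed by −0.29 (−0.38 to −0.20) and −0.26 (−0.47 to −0.04). The Ces3a stop codon peak had 352 RPM (HKO IP) and 332 RPM (HKO input), against 784 RPM (flox IP) and 602 RPM (flox input), and that of Ces3b had 60.7 RPM (HKO IP) and 44.9 RPM (HKO input), against 242 RPM (flox IP) and 150 RPM (flox input). In both genes every value was lower in HKO, and IP and input moved nearly together. About 31 to 34% of the 50-nt words under the Ces1b, Ces1c, Ces3a and Ces3b peaks also occur in another gene, so some of their reads could have been placed on the wrong paralog; the Ces1g and Ces1e peaks shared none.

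The UDP-glucuronosyltransferases of the Ugt2 group, which conjugate steroids and phenolic compounds, had a negative change at 5 of 6 peaks (median −0.70). Over all peaks 48.9% had a change above 0 (median −0.04). Flox enrichment was 2 or more at 5 of the 6 Ugt2 peaks. All peaks with such a flox enrichment had a median change of −0.59, with 31.6% above 0. Ugt2b1 had 107 RPM (HKO IP) and 99.0 RPM (HKO input), against 339 RPM (flox IP) and 115 RPM (flox input). Its enrichment was 1.08 in HKO and 2.94 in flox livers (log2 change −1.45, −1.62 to −1.27), with IP lower and input close in the HKO library. Ugt2b36 had 208 RPM (HKO IP) and 125 RPM (HKO input), against 476 RPM (flox IP) and 169 RPM (flox input), a change of −0.75 (−0.89 to −0.61). Ugt2a3 changed by −0.65 (−0.86 to −0.44). It had 78.4 RPM (HKO IP) and 52.9 RPM (HKO input), against 231 RPM (flox IP) and 99.3 RPM (flox input), so IP was lower by more than input. The start peak of Ugt2b35 differed from these in that IP and input were both higher in HKO livers: 66.9 RPM (HKO IP) and 39.6 RPM (HKO input), against 55.3 RPM (flox IP) and 14 RPM (flox input). Its enrichment was nevertheless lower in HKO livers (−1.23, −1.59 to −0.87), while its 3' UTR peak changed by 0.25. The Ugt1a genes overlap one another. All those with a peak shared 1 peak, and Ugt1a9 and Ugt1a10 also shared another. A change at either therefore cannot be assigned to 1 gene. The peak shared by all had 1.28 RPM (HKO IP) and 0.817 RPM (HKO input), against 14.6 RPM (flox IP) and 6.75 RPM (flox input). Its input was lower (−3.05), and its enrichment change had a wide interval (−0.47, −1.88 to 0.95). The other had more input in HKO (1.38).

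Retinoic acid is broken down by CYP26A1 and CYP26B1. Cyp26a1 had 5.16 RPM (HKO IP) and 4.41 RPM (HKO input), against 19.2 RPM (flox IP) and 6.35 RPM (flox input), with an enrichment change of −1.37 (−2.14 to −0.60). Cyp26b1 had a 3' UTR peak with 12.2 RPM (HKO IP) and 2.01 RPM (HKO input), against 7.98 RPM (flox IP) and 2.74 RPM (flox input), and a change of 1.06 (0.05 to 2.06). The second Cyp26b1 peak, near its stop codon, changed by −0.16. Cyp51, the sterol demethylase of cholesterol synthesis, had equal IP and input in HKO livers (26.6 RPM each) against 62.2 RPM (flox IP) and 34 RPM (flox input), a change of −0.87 (−1.21 to −0.54).

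Fmo2, a flavin monooxygenase of soft nucleophiles such as amines and sulfides, had at its stop codon peak 6.85 RPM (HKO IP) and 5.61 RPM (HKO input), against 11 RPM (flox IP) and 3.07 RPM (flox input). The change was −1.55 (−2.4 to −0.71). The upstream peak of Fmo2 changed by 0.36, on 12 flox input reads. Its liver relative Fmo5 had 3 peaks that changed by 0.41, 0.30 and −0.18. The Fmo5 peak with the most IP reads had 246 RPM (HKO IP) and 148 RPM (HKO input), against 253 RPM (flox IP) and 187 RPM (flox input), close in both genotypes.

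Aldh1b1, a mitochondrial aldehyde dehydrogenase, had a lower enrichment with more reads of both fractions in the peak. Its stop codon peak had 268 RPM (HKO IP) and 144 RPM (HKO input), against 132 RPM (flox IP) and 34.3 RPM (flox input). Enrichment was 1.86 in HKO and 3.86 in flox livers (−1.05, −1.27 to −0.83), and input differed more than IP did. Its upstream peak, with input 34.1 RPM in HKO and 6.41 RPM in flox, changed by 0.20. Aldh2, the main mitochondrial acetaldehyde dehydrogenase, had changes of 0.45 to 0.57 at its 3 peaks. Near its stop codon there were 484 RPM (HKO IP) and 195 RPM (HKO input), against 442 RPM (flox IP) and 242 RPM (flox input). Aldh1l1, a folate enzyme, had 5 peaks, which changed by −0.16 to 0.58. The strongest by IP reads had 86.8 RPM (HKO IP) and 41.4 RPM (HKO input), against 78.2 RPM (flox IP) and 53 RPM (flox input). The 4 exonic peaks of Aldh1l1 all had slightly higher enrichment in HKO livers.

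Adh7, an alcohol dehydrogenase of class IV that also oxidises retinol, had a start peak with 12.3 RPM (HKO IP) and 7.46 RPM (HKO input), against 55.6 RPM (flox IP) and 11.6 RPM (flox input). The change was −1.54 (−2.09 to −1.0). Only 50 nt of this peak (chr3:138220816-138221520) lay on the exon used to place it, at the start of a noncoding Adh7 transcript. The second Adh7 peak called lower (−1.11) lies in no Adh7 exon and over 0610031O16Rik, as does another Adh7 peak that changed by 0.83. The peak at 0.83 had 11.9 RPM (HKO IP) and 3.32 RPM (HKO input), against 14.5 RPM (flox IP) and 7.21 RPM (flox input). A further exonic Adh7 peak had 4.24 RPM (HKO IP) and 1.47 RPM (HKO input), against 45.7 RPM (flox IP) and 11.3 RPM (flox input), with both fractions lower in HKO and an enrichment change of −0.49 (−1.45 to 0.47). Adh1, the main ethanol dehydrogenase of liver, had 182 RPM (HKO IP) and 111 RPM (HKO input), against 134 RPM (flox IP) and 106 RPM (flox input) at its coding peak, and Adh5, the formaldehyde-glutathione dehydrogenase, had 53 RPM (HKO IP) and 29.1 RPM (HKO input), against 46.1 RPM (flox IP) and 29.9 RPM (flox input). Input was alike in both genotypes at each (0.06 and −0.04). The pseudogene Adh6-ps1 had 14.7 RPM (HKO IP) and 5.83 RPM (HKO input), against 120 RPM (flox IP) and 26.9 RPM (flox input) at its widest peak and changed by −0.82 (−1.33 to −0.31). Akr1d1, the 5β-reductase of bile acid and steroid synthesis, was lower at an intron peak that covers Gm7463 (−1.85, −2.39 to −1.32), with 14.9 RPM (HKO IP) and 8.11 RPM (HKO input), against 68.5 RPM (flox IP) and 10.4 RPM (flox input); its start peak changed by 0.88. Sult5a1 (−1.90, −4.99 to 1.19) and the intron peak of Cyp2c54 (−1.03, −3.49 to 1.43) were called on 2 and 3 HKO input reads, and their intervals included 0. The remaining lower peak was that of Cyp4f17 (−1.25, −2.34 to −0.15).

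**Figure D2:**
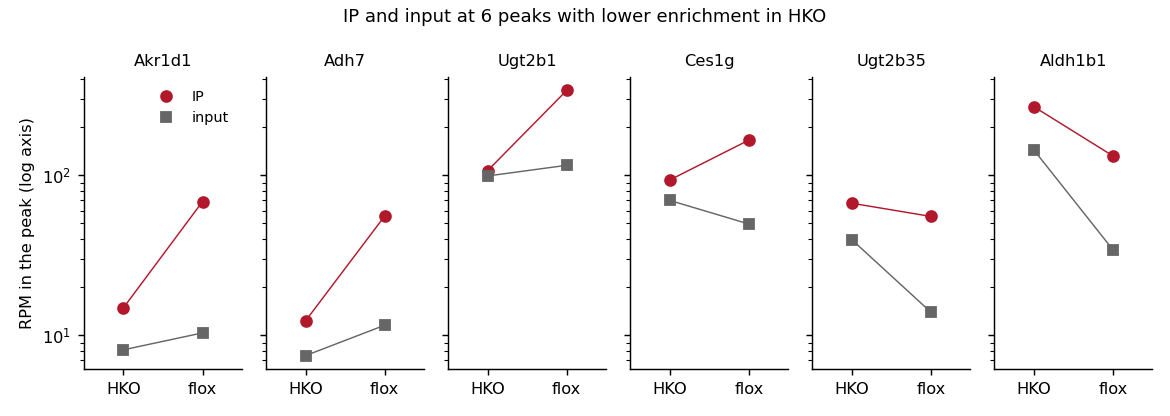
RPM in the HKO library (left in each panel) and the flox library (right) at the 6 largest falls in enrichment among well-covered peaks, for IP (red circles) and input (grey squares) on a log axis; each point is 1 library. The gap between IP and input is narrower in HKO in all 6 panels, with IP higher in HKO only for Ugt2b35 and Aldh1b1.

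The lower peaks can also be described by which library moved. IP RPM was lower in HKO at 10 of 12 enzyme peaks (83.3%), against 92.2% of the 3116 lower peaks in all. Input was higher in HKO at 4 of the 12 (33.3%), against 78.8% of the lower peaks in all; over every enzyme peak the share was 34.9%, and over every peak 63.7%. With 12 peaks these shares carry wide counting error, and no test was made.

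Among the higher peaks, Gstk1, a mitochondrial and peroxisomal glutathione transferase, had 19.0 RPM (HKO IP) and 4.74 RPM (HKO input), against 17.2 RPM (flox IP) and 9.68 RPM (flox input). IP was close in both genotypes and input lower in HKO, and the change was 1.17 (0.54 to 1.80). Ugt3a2 changed by 0.94 (0.53 to 1.36) and Gsta4 by 0.90 (0.15 to 1.65), both just under the size rule. Ugt3a2 had 32.7 RPM (HKO IP) and 16.9 RPM (HKO input), against 21.5 RPM (flox IP) and 21.4 RPM (flox input); Gsta4, a transferase of lipid aldehydes, had 22.9 RPM (HKO IP) and 6.48 RPM (HKO input), against 7.48 RPM (flox IP) and 3.94 RPM (flox input). Flox enrichment was thus lower than HKO enrichment at both. Gstp3 (1.03, 0.27 to 1.79), Cyp2j9 (1.12, 0.11 to 2.13) and Cyp4a31 (1.02, 0.12 to 1.92) were also higher. Adh4 (1.06), the 3'-most peak of the pseudogene Adh6-ps1 (1.07) and an Akr1c6 intron peak (1.36) were higher with intervals that included 0. The Akr1c6 intron peak had 32.3 RPM (HKO IP) and 7.46 RPM (HKO input), against 1.24 RPM (flox IP) and 0.735 RPM (flox input). At the Sult2a8 intron peak HKO input held 0 reads and flox input 37, so no fold is given for its enrichment.

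The change of enrichment differed by place on the transcript. Of the 149 peaks, 133 (89.3%) touched an exon of their gene. Of those, 52 had their middle within 200 nt of the transcript start (39.1%, interval 30.8 to 47.9), against 17.0% of all placed peaks. Near the stop codon were 26.9% of the enzyme peaks on coding transcripts and 25.8% of all, and 26.9% and 32.6% had their middle in the 3' UTR. The median change near the start was 0.55 for the enzymes and 0.46 for all peaks. In the coding sequence elsewhere it was 0.47 and 0.02, near the stop codon −0.24 and −0.82, and in the rest of the 3' UTR 0.40 and −0.69, for the enzymes and for all. On noncoding exons the order was the reverse, with 0.22 for 6 enzyme peaks and 0.39 for all. Of the 32 enzyme peaks near a stop codon, 5 were at least 2-fold lower (15.6%), against 42.7% of all. Only peaks with a flox enrichment of 2 or more could be called lower. Near the stop codon these were 10 of the 32 enzyme peaks and 2143 of all 2645 peaks. Among them 5 of 10 enzyme peaks and 1130 of 2143 in all were lower, which are close shares. In the coding sequence elsewhere, 5 of 30 enzyme peaks had a flox enrichment of 2 or more, against 69.5% of all. In the rest of the 3' UTR it was 2 of 13, against 79.6%. The part of flox enrichment in the differences of the medians was not tested. These shares are descriptions, and the enzyme peaks were also less enriched in flox livers than the rest.

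**Figure D3:**
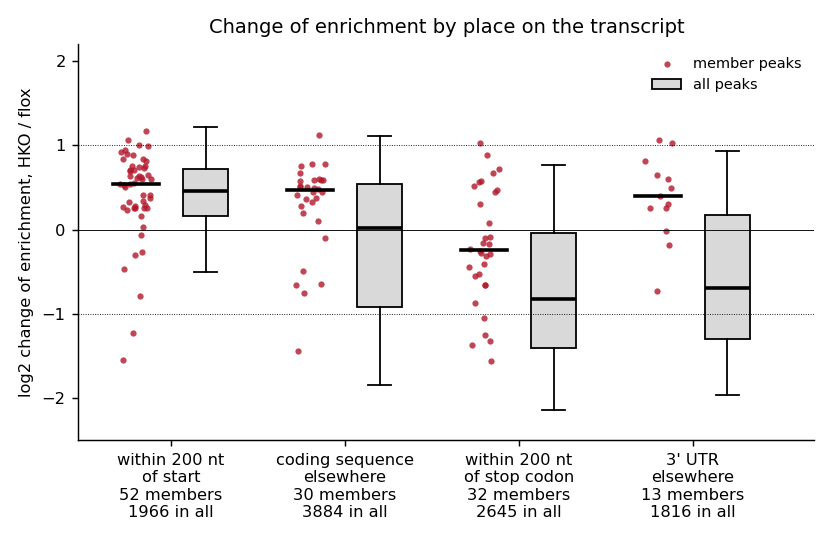
Log2 change of enrichment (HKO over flox) by position on the transcript. Red points are single enzyme peaks with their median as a bar, and the grey box beside them shows all peaks of that position (box, quartiles; line, median; whiskers, the 5th to 95th percentile); dotted lines mark 2-fold. The enzyme median lies above the median of all peaks in the 4 positions shown. In each of them a smaller share of the enzyme peaks than of all peaks had a flox enrichment of 2 or more. The 6 enzyme peaks on noncoding exons, not drawn, went the other way.

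Transcripts with a peak near the start and another near the stop codon or beyond it allow both ends to be compared in the same libraries. In 9 of 11 such enzyme genes the end had the lower change, with a median difference of −0.94; over all genes it was 674 of 795 with a median of −1.04. Ces1g was 0.63 at the start and −1.32 at the end, Sult1a1 0.73 and −0.27, and Ces3b 0.63 and −0.26. The exceptions were Ugt2b35 and Gstm6, whose ends had the higher change (0.25 and 0.59).

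**Figure D4:**
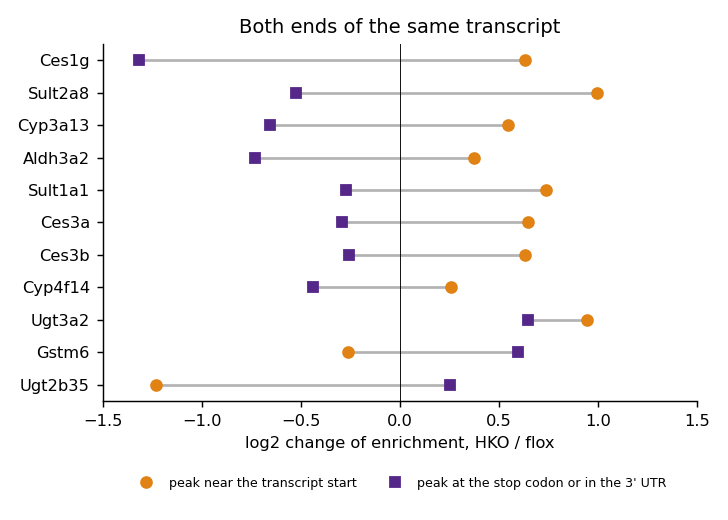
Log2 change of enrichment (HKO over flox) at the start peak (orange circles) and at the peak near or beyond the stop codon (purple squares) of 11 enzyme genes, joined by a line. The end lies left of the start in 9 genes; Ugt2b35 and Gstm6 run the other way.

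The motif GGACT was searched on the transcript strand of the exonic part of each placed peak. It was found under 30 of 133 enzyme peaks (22.6%, 15.8 to 30.6), against 38.3% of all placed peaks; the enzyme peaks cover a median of 194 exonic nt and all peaks 263. The shorter motif GGAC was under 57.1% and 75.9%, and DRACH (D is A, G or T; R is A or G; H is A, C or T) under 97.0% and 96.9%. GGACT contains GGAC and is itself a DRACH word, so these counts overlap. Away from transcript starts, enzyme peaks with GGACT had a median change of −0.21 and those without 0.45. All such peaks had −0.84 and 0.13. Peaks with more flox enrichment had more room to fall. Flox enrichment was 2 or more at 11 of 24 enzyme peaks with GGACT and at 10 of 57 without. Over all such peaks the shares were 86.2% and 63.7%. The part of flox enrichment in this contrast was not tested. A match says only that the letters are there. The lower peaks of Ugt2b1, Ugt2b35 and Aldh1b1 held no GGACT, and that of Aldh1b1 held 14 GGAC.

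Input reads under a peak follow the amount of that RNA, and more enzyme peaks passed the 2-fold rule in input than in enrichment. Input was at least 2-fold lower in HKO livers at 40 of 149 peaks (26.8%, interval 19.9 to 34.7) in 30 genes, against 5.06% of all peaks. It was at least 2-fold higher at 17 peaks (11.4%, 6.79 to 17.6) in 15 genes, against 14.6%. The 30 genes include every Ugt1a gene with a peak, since all of these share the same lower peak. Ugt1a9 and Ugt1a10 also share a higher peak and are counted among the 15 as well. The median log2 input change was −0.35 for the enzymes and 0.22 for all peaks, so the enzymes lay at −0.57 relative to that shift. Hepatocyte marker peaks had a median input change of −0.29, with 13 of 16 below 0; its part in the enzyme values was not tested. Of the 44 genes with several peaks, 33 had the same sign at every one. The share over all genes is not given here.

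The Cyp2c enzymes, which metabolise arachidonic acid and many drugs, were a large group among them. All 16 Cyp2c peaks had less input in HKO livers, as did 4654 of all 12815 peaks. Of the 16, 13 were at least 2-fold lower (median −1.61), against 5.06% of all peaks. Apart from Cyp2c69, with 0 HKO input reads, the Cyp2c peaks ran from −4.29 to −0.51. At the stop codon peak of Cyp2c29 the values were 259 RPM (HKO IP) and 236 RPM (HKO input), against 689 RPM (flox IP) and 558 RPM (flox input). Input changed by −1.24 (−1.31 to −1.16) while enrichment changed by only −0.17. Input changed by −1.90 at Cyp2c50 and by −1.91 at Cyp2c67. It changed by −1.63 and −1.78 at the 2 Cyp2c23 peaks and by −1.63 and −1.6 at the 2 Cyp2c37 peaks. Cyp2c54 was lower still (−3.94 at its start peak: 34 HKO and 436 flox input reads). At Cyp2c69, HKO input held 0 reads and flox input 140, so flox was at least 57.2-fold higher on a floor of 3 reads in the HKO library. Cyp2c69 IP was 0.174 RPM in HKO and 16.9 RPM in flox. The Cyp2c54 start peak had 4.58 RPM (HKO IP) and 1.91 RPM (HKO input), against 39.2 RPM (flox IP) and 29.2 RPM (flox input), and its enrichment changed by 0.84 (−0.01 to 1.69). The Cyp2c37 start peak had 16.2 RPM (HKO IP) and 8.11 RPM (HKO input), against 25.9 RPM (flox IP) and 24.5 RPM (flox input), and its enrichment changed by 0.92 (0.42 to 1.41). Input was thus lower in HKO at both by more than IP. Both Cyp2c37 peaks shared most of their 50-nt words with another gene (80.7% and 57.9%), and several other Cyp2c peaks shared between 6.93% and 48.9%, so the split of reads among these paralogs is uncertain.

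Other Cyp genes moved in both directions. Cyp3a25 input changed by −1.39, Cyp3a13 by −1.12, −1.07 and −0.54, Cyp2j5 by −1.54 and −1.04, and Cyp4f14 by −1.88 and −1.29. Cyp3a25 had 170 RPM (HKO IP) and 35.8 RPM (HKO input), against 347 RPM (flox IP) and 94 RPM (flox input) at an intron peak. Cyp3a13 had 27.5 RPM (HKO IP) and 24.7 RPM (HKO input), against 94.4 RPM (flox IP) and 53.8 RPM (flox input) near its stop codon, with an enrichment change of −0.66 (−0.97 to −0.34). Both fractions were lower in HKO at each. At the stop codon peak of Cyp4f14, a leukotriene hydroxylase, there were 42.2 RPM (HKO IP) and 30.4 RPM (HKO input), against 210 RPM (flox IP) and 112 RPM (flox input), and at the downstream peak of Cyp2a12 148 RPM (HKO IP) and 53.3 RPM (HKO input), against 268 RPM (flox IP) and 110 RPM (flox input). Cyp7b1, the oxysterol 7α-hydroxylase, had 3.66 RPM (HKO IP) and 3.27 RPM (HKO input), against 43.9 RPM (flox IP) and 24.8 RPM (flox input), an input change of −2.92 (−3.48 to −2.37). The opposite sign was seen at Cyp2a5 (0.96 and 0.92), Cyp4a14, an ω-hydroxylase of fatty acids regulated by PPARα (1.51, 1.4 to 1.63), and Cyp2a4 (3.65, 107 HKO and 6 flox input reads). Values at the stop codon peak of Cyp2a5, the coumarin hydroxylase, were 252 RPM (HKO IP) and 168 RPM (HKO input), against 126 RPM (flox IP) and 88.6 RPM (flox input), and at Cyp4a14 356 RPM (HKO IP) and 291 RPM (HKO input), against 126 RPM (flox IP) and 102 RPM (flox input). Cyp2a4, a steroid 15α-hydroxylase, had 11.8 RPM (HKO IP) and 5.88 RPM (HKO input), against 0.506 RPM (flox IP) and 0.468 RPM (flox input). Both fractions were higher in HKO at all of these, and enrichment at Cyp2a5 and Cyp4a14 changed by 0.08 and −0.01. Cyp4a12a had 69.1 RPM (HKO IP) and 41.5 RPM (HKO input), against 47 RPM (flox IP) and 45.1 RPM (flox input) near its stop codon. Cyp2a4 and Cyp2a5 are close copies and shared 35.9% and 24.8 to 47.5% of their 50-nt words with other genes.

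Sulfotransferases attach sulfate to steroids, bile acids and phenols. The stop codon peak of Sult2a8 had 8.07 RPM (HKO IP) and 7.62 RPM (HKO input), against 171 RPM (flox IP) and 113 RPM (flox input), an input change of −3.88 (−4.24 to −3.53). Input changed by −3.87 and −3.60 at its other exonic peaks, and its intron peak held 0 HKO and 37 flox input reads. At Sult1a1 the 3 changes were −0.46, −0.28 and −0.32. Its stop codon peak, which also touches Sgf29, had 149 RPM (HKO IP) and 89.1 RPM (HKO input), against 248 RPM (flox IP) and 123 RPM (flox input). Sult5a1 had 0.406 RPM (HKO IP) and 0.163 RPM (HKO input), against 5.57 RPM (flox IP) and 0.601 RPM (flox input); HKO input was 2 reads. Sult2a8, Cyp7b1, Cyp4a12a and Cyp4a12b belong to the male-biased members, which had 9 peaks with a median input change of −2.92 (5 at least 2-fold lower, against 5.06% of all peaks, and 0 higher). Of the 5 lower peaks, 4 were in Sult2a8 and 1 in Cyp7b1, and 3 of the 7 listed genes had no peak. The 4 Cyp4a12a and Cyp4a12b peaks ran from −0.12 to 0.64. The female-biased members with a peak were Cyp2a4 and Fmo2, whose 3 peaks all had more input in HKO (median 1.5), on 6, 12 and 45 flox input reads; the other 14 of 16 listed genes had no peak. The labels do not give the sex of the mice, and these lists were fixed with earlier results of the data known.

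Input was at least 2-fold higher in HKO at 3 of 12 Gst peaks (25%) and 5 of 22 Aldh peaks (22.7%), against 14.6% of all peaks. It was at least 2-fold lower at 1 peak of each family (8.33% and 4.55%), against 5.06% of all peaks. These shares rest on few peaks. Gstm1, a mu-class transferase, had 1259 RPM (HKO IP) and 1007 RPM (HKO input), against 539 RPM (flox IP) and 513 RPM (flox input), an input change of 0.97 (0.92 to 1.03). Gstm3 had 268 RPM (HKO IP) and 218 RPM (HKO input), against 22.5 RPM (flox IP) and 22.5 RPM (flox input), a change of 3.27 (3.05 to 3.50). Gstm2 changed by 1.47 and Gstp3 by 1.13, whereas Gstk1 changed by −1.03 and Gstt1 by −0.39. Gstt1, a theta-class form, had 91.9 RPM (HKO IP) and 54.7 RPM (HKO input), against 87 RPM (flox IP) and 71.5 RPM (flox input). The Gst family had a median input change of 0.61. Aldh1b1 (2.41 and 2.07), Aldh1a7 (1.97 and 1.5), Aldh3a2 (1.01 and 0.32) and Aldh1a1 (0.53) had more input in HKO. The family was evenly split, with 11 of 22 peaks below 0 (median 0.06): Aldh7a1 changed by −1.10, and Aldh1l1 by −0.49 to −0.13 at its 5 peaks. The start peak of Aldh1a7 had 30.7 RPM (HKO IP) and 10.2 RPM (HKO input), against 7.7 RPM (flox IP) and 2.6 RPM (flox input), and that of Ces2e had 48.9 RPM (HKO IP) and 14.6 RPM (HKO input), against 7.82 RPM (flox IP) and 3.81 RPM (flox input). IP and input were both higher in HKO at these. Ces2e (1.94) and Ces2g (1.43) were higher too, whereas Ces3b was lower (−1.74 and −1.30) and Ces1b, Ces1e and Ces1f had changes of −0.99 to −0.52. Akr1c6, a hydroxysteroid dehydrogenase, had peaks that moved apart: its start peak changed by −0.46, and 2 intron peaks by 3.40 and 3.34, on 24 and 10 flox input reads. The start peak had 78.3 RPM (HKO IP) and 36.6 RPM (HKO input), against 74.7 RPM (flox IP) and 50.4 RPM (flox input), and the wider intron peak 68.4 RPM (HKO IP) and 17.6 RPM (HKO input), against 6.02 RPM (flox IP) and 1.67 RPM (flox input). Akr1c13, its neighbour in the family, had 40.6 RPM (HKO IP) and 7.73 RPM (HKO input), against 19.7 RPM (flox IP) and 4.47 RPM (flox input), higher in HKO in both fractions.

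**Figure D5:**
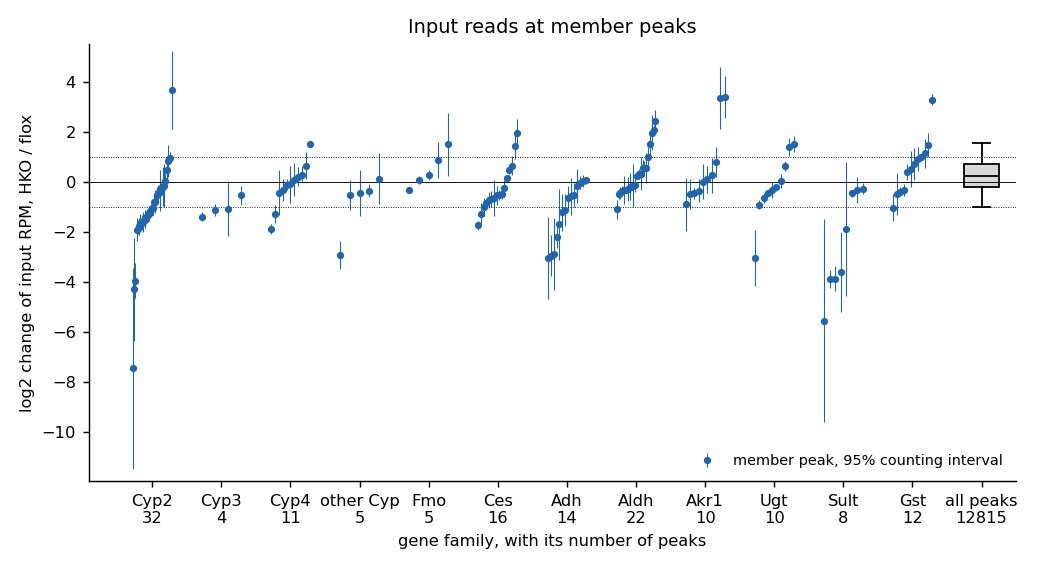
Log2 change of input RPM (HKO over flox) for each enzyme peak, by family, with 95% counting intervals; the number under each name is its peaks, and other Cyp means Cyp7b1, Cyp26a1, Cyp26b1 and Cyp51. The grey box shows all 12815 peaks (quartiles, median, whiskers at the 5th and 95th percentiles) and the dotted lines mark 2-fold. The lowest Cyp2 and Sult points are Cyp2c69 and the Sult2a8 intron peak, whose HKO input held 0 reads and whose plotted values rest on the added read. Sult and Cyp2 peaks extend furthest down, and Gst, Akr1, Cyp2 and Aldh each hold a peak above 2.

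Hepatocytes around the central vein express many of these genes. The pericentral members had 20 peaks, 7 with input at least 2-fold lower and 5 at least 2-fold higher in HKO livers, against 5.06% and 14.6% of all peaks, so the zonal group moved in both directions (median 0.41). It holds Cyp2c29, Cyp2c37, Cyp2c50 and Cyp2c54 on the lower side and Gstm3, Gstm2 and Akr1c6 intron peaks on the higher side. Cyp2e1, Cyp1a2 and Cyp3a11 were not among the peaks analysed. Aldh1b1 was the one periportal member with a peak.

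The sensors and partners that control these genes were lower in enrichment at 10 of 28 peaks over 12 of 14 listed genes and higher at 1 (median change −0.74), against 24.3% and 6.25% of all peaks. Their lower peaks included Ahr, the dioxin receptor (−2.47, −2.80 to −2.13), Ppara, the fatty acid receptor (−2.03), Keap1, the sensor of electrophiles (−1.83), and Hnf4a (−1.56). Other peaks of such genes were positive, as 2 of Hnf4a (0.54 each) and 2 of Rxra (0.43 and 0.48). Nfe2l2 (NRF2), the partner of KEAP1, had one peak at −1.06 and its start peak at 1.12. The xenobiotic receptor gene Nr1i2 changed by −0.80 at its 3' UTR peak and 0.37 and 0.45 elsewhere, and Nr1i3 by 0.35.

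Over all peaks 24.3% were lower and 6.25% higher in enrichment, the shares to set beside the counts that follow. Electron transfer and haem supply genes gave 1 lower peak of 11, at Pgrmc2, a haem-binding protein gene (−1.48). Por, the reductase that feeds all microsomal Cyp enzymes, changed by 0.71 and 0.61. Other phase I enzymes gave 2 lower and 2 higher peaks of 18, but both lower calls rest on few flox input reads (2 for Cbr3, with an interval of −4.20 to 0.85, and 0 for Maoa, for which no fold is given). Among other phase II enzymes, the acetyltransferase gene Nat2 (−1.70) and the glycine conjugation gene Glyat (−1.24) each had a lower peak. Transporters gave 1 lower and 1 higher of 22, the lower at Slc10a1, the bile acid importer (−1.03). Of 10 peaks of other steroid enzymes, 2 were lower, at Hsd3b5 (−1.39) and Hsd3b2 (−1.32), and 1 was higher. Hsd3b5 input also differed, by −2.53.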

How the data were processed

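Reads had been aligned and peaks called by the authors; per the labels, BWA 0.7.12-r1039, MACS2 2.1.0, FastQC and HOMER were used on GRCm38, while the study's methods name exomePeak, so the caller is uncertain. BWA does not splice reads, so peaks across exon junctions may lose reads. Strandedness was not given in the sources used here. The deposited counts are raw read counts per merged peak and library; many are even because both mates of a fragment were counted, so counting intervals used the reads divided by 2. The RPM values deposited by the authors add 1 read to each count and divide by the library total; the authors' fold enrichment is a ratio, IP RPM over input RPM. Its log2 ratio is the authors' own comparison and was not used; the number of per-sample columns left unused was 0.

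Rows repeated for several genes were reduced to distinct peaks. Enrichment was computed from the RPM values in Python 3.11.15 (pandas 2.3.3, numpy 2.4.6, scipy 1.17.1). Intervals are 95%. Those of single peaks cover counting error of the reads only. The exact binomial ones treat peaks as independent and hold no error of the reads. Peaks were placed on GENCODE transcripts of GRCm38. Calls used a 2-fold rule because there was 1 library per group. The arithmetic was tested on simulated counts. The members, gene lists and rules were chosen with earlier results of these data known. Library values were given mainly for genes named by a rule: the 8 largest falls and 8 largest rises of enrichment in well-covered peaks, the 6 largest input falls and rises, and up to 3 genes per family with the most IP reads. Other fold rules, depth filters, scalings and peak filters were tried.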

Additional observations from a re-analysis of the deposited data

How the results depend on the processing

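Of 42 alternative settings, 29 left a result within its margin. At a 1.5-fold rule 21 enzyme peaks were lower and 47 higher in enrichment (35.8% and 20.7% of all peaks), and at a 3-fold rule 2 were lower and 1 higher (10.1% and 1.06%). The 2 lower at 3-fold were Sult5a1, on 2 HKO input reads, and the Akr1d1 intron peak. The 1 higher was the Sult2a8 intron peak, on 0 HKO input reads. Peaks at or above the median IP read number gave 6 lower and 3 higher of 117 (27.8% and 1.5% of all such peaks). Centring on the peaks near transcript starts, a shift of 0.46, gave 23 lower and 1 higher (36.8% and 1.6% of all), and turned the median enrichment change to −0.083. The 1 higher peak was again the Sult2a8 intron peak. Centring input on the median of all peaks, an alternative chosen after seeing the data, moved the median input change to −0.57; the counts of input calls stayed within their margin. Within 100 nt of the start lay 22.6% of the placed peaks. GGAC was under 57.1% and DRACH under 97.0%. The input counts on well-covered peaks or on peaks of 1 gene, and the settings that keep exonic peaks or drop those of shared sequence, were also chosen after seeing the data and moved no count past its margin. The 133 exonic peaks gave 8 lower and 7 higher in enrichment (24.5% and 6.19% of all exonic peaks). In input they gave 31 lower and 15 higher (4.09% and 14.7%). Without peaks of shared sequence as well, 29 were lower in input. No paired analysis was possible because each genotype had 1 library per fraction. With 1 library each, genotype cannot be told apart from pool, handling or library, and intervals leave these out. Low input reads limit the Sult5a1 and Cyp2c54 intron calls, and the Sult2a8 and Akr1c6 intron peaks.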
